A study of Zea mays with 6 samples.

Results

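Transcripts of 24 genes of 39656 in the table were high in both the center zone of the maize shoot apex and the adaxial side of young leaf primordia, and low on the abaxial side of the same primordia. These genes were chosen by their measured levels. In RPM, the reads of a gene scaled to the depth of its library, the lowest of the 2 center zone and 2 adaxial libraries had to reach 5 RPM and at least 2 times the higher of the 2 abaxial libraries, and the center zone and adaxial means had to lie within 3-fold of each other. A set of 6 genes, among them the leaf polarity genes rld1, rld2 and IG1, was left out by name, but none of the 6 met these limits, so the count was 24 either way. Because the levels in all 3 domains were used for this choice, the values below describe the genes, and nothing is drawn from the calls and counting intervals given for them.

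The seedlings were wild-type B73 at an age of 14 d, and the 3 domains were laser-microdissected from 8-µm sections of their apices, with no mutant, transgene or treatment in any group. Center zone (CZ) cells came from the shoot apex, and adaxial (Ad) and abaxial (Ab) cells from the 2 sides of leaf primordia P2 and P3. Each domain had 2 biological replicates, each pooled from at least 10 apices, so that the spread between libraries is a spread between pools and not between plants. Total gene counts per library ran from 14718269 to 25898155 and were lowest in the 2 abaxial libraries, where 3 counts corresponded to 0.196 and 0.186 RPM.

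The adaxial side of a leaf is the side that faces the meristem and becomes the upper surface, and the abaxial side faces away and becomes the lower surface. In maize the adaxial side is specified by HD-ZIP III transcription factors, by ta-siRNAs that act against ARF3 transcripts, and by the LOB domain gene indeterminate gametophyte1, while KANADI transcription factors such as milkweed pod1 mark the abaxial side. HD-ZIP III transcripts are also known from the meristem itself, so that a level shared by the meristem center and the adaxial side is a pattern already familiar from that family.

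Marker genes of each domain were looked up in the libraries, with mixed results for the adaxial list. Summed over 8 meristem genes, class I KNOX genes and wox9 genes that keep cells indeterminate or mark the meristem, the center zone libraries held 1404 and 1229 RPM, the adaxial libraries 18.8 and 15.4 RPM and the abaxial libraries 16.8 and 10.2 RPM. The KANADI genes kan1, kan3 and mwp1 summed to 1.4 to 5.5 RPM in the center zone, 1.9 to 3.6 RPM on the adaxial side and 80 to 83.7 RPM on the abaxial side. The adaxial list of rld1, rld2, IG1 and ial1 summed to 685.1 and 912.5 RPM in the center zone, 1012 and 893.3 RPM in the adaxial and 503.7 and 481.4 RPM in the abaxial libraries, so that center zone and adaxial sums overlapped. Of its genes, IG1 and ial1 were highest in the adaxial libraries (IG1 at 201 and 181.8 RPM, against 3.9 to 10.9 RPM in the other 4), the mean of rld2 was highest in the center zone, and rld1 was at 470.6 and 475.1 RPM adaxially against 349.2 to 444.1 RPM in the other 4. The 6 leaf primordium genes, all YABBY genes, summed to 469.6 to 564.3 RPM in the 4 leaf libraries, to 88.7 RPM in center zone replicate 1 and to 21.9 RPM in center zone replicate 2. Replicate 1 of the center zone thus held more leaf marker signal than replicate 2, mostly from yabby15 at 78.8 against 16.3 RPM. None of these marker genes was at 0 in all 6 libraries, although wox9C was at 0 in both abaxial libraries. The entry wox9b (GRMZM2G133972), at only 0.9 and 0.6 RPM in the center zone, was at 0 in all 4 leaf libraries. The separate entry wox9B (GRMZM2G031882) was at 1 and 2.8 RPM adaxially and 0 and 0.1 RPM abaxially. In bulk samples such as these, fewer cells with a transcript and less transcript per cell cannot be told apart.

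Across the 24 genes the median of the domain means was 14.8 RPM in the center zone and 11.8 RPM adaxially, against 2.5 RPM abaxially. The mean of the center zone and adaxial libraries was 2.51 to 50 times the abaxial mean, with a median of 4.79. In all, 8 genes had an abaxial mean under 2 RPM, the level at which the study counted a gene as expressed, and the other 16 were still at or above it on the abaxial side. Most genes of the set were therefore lower abaxially rather than off there. Summed over the set, the RPM were 840.3 and 757.3 in the center zone, 575.1 and 601 on the adaxial side and 157.4 and 143.7 on the abaxial side. In the same order, GRMZM2G011592 alone held 264.7 and 206.6, 191.2 and 190.8, and 93.8 and 75.9 RPM of these sums. GRMZM2G136494, which overlaps another gene, held 118.2 and 189.8, 105 and 64.7, and 1.1 and 3.7 RPM. RPM carry no correction for gene length, which the study left out because amplification captures the 3′ ends of transcripts. Apart from the choice of the 5 genes with the highest mean, levels of different genes were not ranked against each other.

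**Figure D1:**
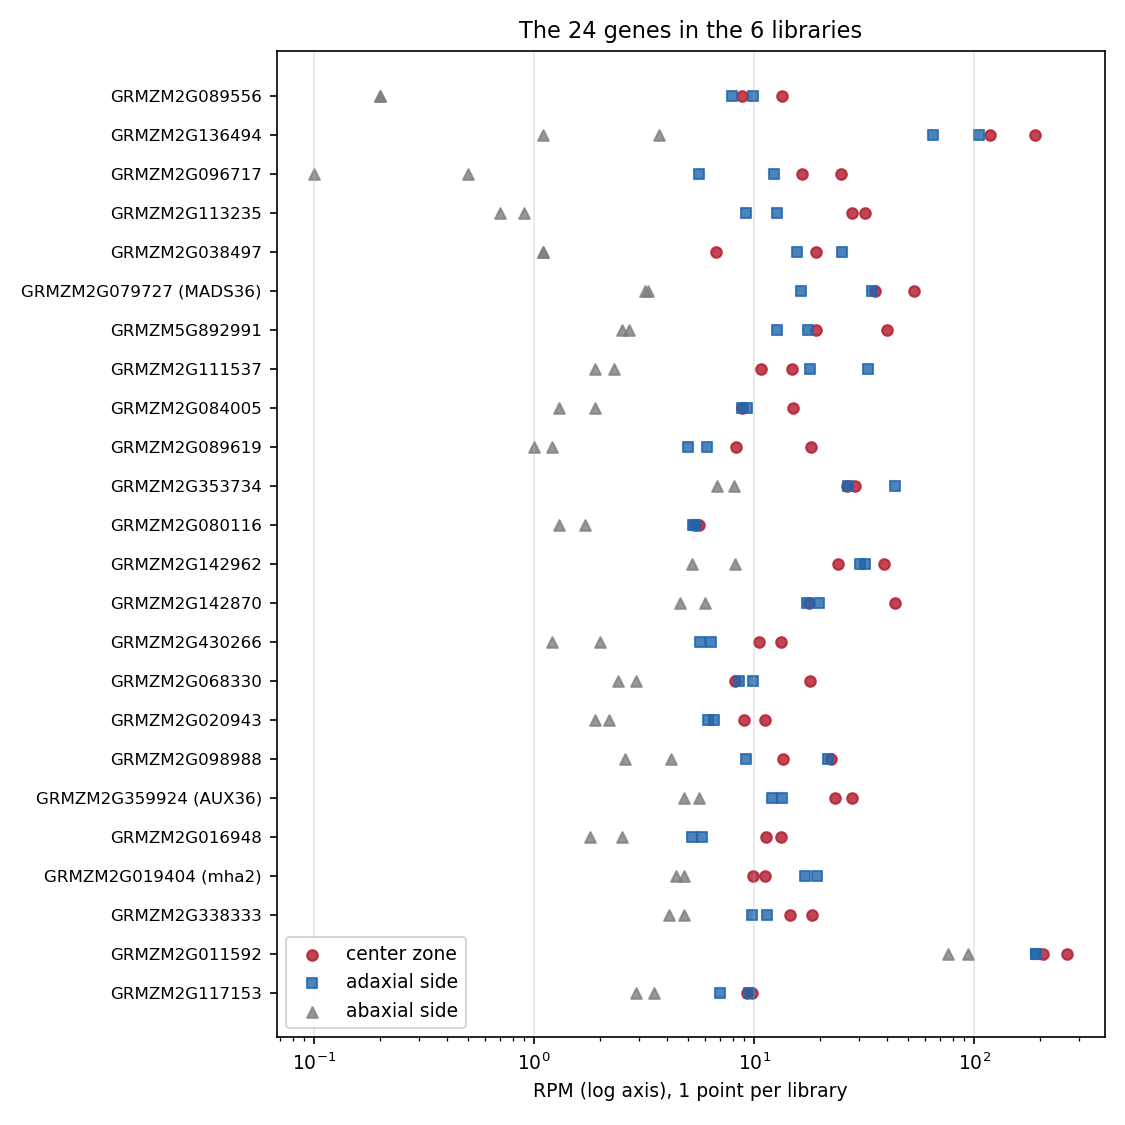
Levels of the 24 genes in RPM on a log axis, 1 point per library, with red circles for the 2 center zone, blue squares for the 2 adaxial and gray triangles for the 2 abaxial libraries, ordered from the widest to the narrowest gap between the lowest center zone or adaxial library and the higher abaxial library. The gap runs from 39.5-fold for GRMZM2G089556 to 2-fold for GRMZM2G117153, and the circles and squares overlap in 10 of the 24 rows.

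The gene with the widest gap was GRMZM2G089556, on chromosome 5 (6546963 to 6549071, minus strand, B73 RefGen_V3). It was at 8.8 and 13.4 RPM in the center zone, 9.9 and 7.9 RPM on the adaxial side and 0.2 RPM in both abaxial libraries. The center zone and adaxial values overlapped, and the lowest of them was 39.5 times the abaxial value. The abaxial RPM rested on 3 and 4 counts against 211 to 306 counts in each of the other libraries, which gives a pooled ratio of 44.4 with an exact 95% interval of 21.5 to 111 that covers counting error only. No entry for this gene was found in the RefSeq gene table.

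GRMZM2G096717, on chromosome 2 (63946744 to 63947690, minus strand), rested on similarly few abaxial counts. It was at 24.9 and 16.5 RPM in the center zone and 12.3 and 5.6 RPM adaxially, against 0.5 and 0.1 RPM abaxially, where it had 7 counts and 1 count. The pooled ratio was 57.0 with an exact 95% interval of 28.8 to 132. Its 2 adaxial libraries differed 2.20-fold, and both lay under both center zone libraries.

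GRMZM2G113235, on chromosome 5 (193819001 to 193824244, plus strand), came closest to the limit on the balance between center zone and adaxial side. Its levels were 28 and 31.9 RPM in the center zone and 12.7 and 9.2 RPM adaxially, against 0.7 and 0.9 RPM abaxially. The center zone mean was 2.74 times the adaxial mean, and the 3 domains did not overlap. GRMZM2G038497, also on chromosome 5 (168857808 to 168858799, plus strand), had the least stable center zone value, with 19.2 and 6.7 RPM there, 15.6 and 25 RPM on the adaxial side and 1.1 RPM in both abaxial libraries. Without replicate 1 of the center zone it no longer met the rule, because the adaxial mean was then over 3 times the remaining center zone library.

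A further 4 genes had abaxial means under 2 RPM with narrower gaps. GRMZM2G084005 (chromosome 10, 21551481 to 21552913, minus strand) was at 15.1 and 8.8 RPM in the center zone, 8.8 and 9.3 RPM adaxially and 1.3 and 1.9 RPM abaxially. GRMZM2G089619 (chromosome 2, 49511658 to 49513107, minus strand) was at 18.2 and 8.3 RPM, 5 and 6.1 RPM, and 1 and 1.2 RPM in the same order. Its lowest adaxial value lay exactly at the limit of 5 RPM. GRMZM2G080116 (chromosome 8, 62098612 to 62099830, plus strand) varied least among the 4 higher libraries, with 5.6 and 5.4 RPM in the center zone, 5.3 and 5.4 RPM adaxially and 1.3 and 1.7 RPM abaxially. GRMZM2G430266 (chromosome 3, 220854440 to 220857597, plus strand) was at 13.2 and 10.5 RPM, 6.4 and 5.7 RPM, and 1.2 and 2 RPM.

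Among the genes with a name in the reference table, MADS36 (GRMZM2G079727, chromosome 3, 201299150 to 201303771, plus strand) had the widest gap. It belongs to the MADS-box transcription factors, a family best known for flowering time and floral organ identity. Its level was 53.5 and 35.3 RPM in the center zone and 16.4 and 34.3 RPM adaxially, against 3.3 and 3.2 RPM abaxially. The means were 44.4 ± 12.9, 25.4 ± 12.7 and 3.25 ± 0.07 RPM (SD, n = 2 each), and the lower center zone library lay only just above the higher adaxial library. The lowest of these 4 libraries was 4.97 times the higher abaxial library, and the mean over center zone and adaxial side was 10.7 times the abaxial mean.

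The other MADS-box genes of the table were compared with it. Of 32 MADS-box gene IDs found by name, a list drawn up after MADS36 was seen among the 24, 15 were high enough to be tested, and their median log2 change of center zone and adaxial against abaxial was 0.59 beside 0.02 over all genes tested. None of the 15 passed an adjusted p under 0.01 in edgeR's quasi-likelihood test, while 3 were higher and 3 lower at an unadjusted p under 0.05, and DESeq2 called 2 higher and 2 lower. MADS36, chosen on these values, was among the 15, among the 3 higher and among the 2 that DESeq2 called higher. The only other gene on the list whose 4 center zone and adaxial libraries were all more than 2 times the higher abaxial library was zmm31, at 4.4 and 3.2 RPM in the center zone, 4.8 and 13.4 RPM adaxially and 0.4 and 0.6 RPM abaxially, which failed the limit of 5 RPM. The relative zmm16 had another profile, with 8.9 and 4.5 RPM in the center zone against 45.4 to 67.9 RPM in the 4 leaf libraries.

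AUX36 (GRMZM2G359924, chromosome 8, 108568427 to 108570670, plus strand) carries the name of the AUX/IAA family, whose proteins bind auxin response factors, repress auxin-responsive genes and are degraded when auxin is present. It was at 23.2 and 27.8 RPM in the center zone and 12.1 and 13.4 RPM adaxially, against 5.6 and 4.8 RPM abaxially. The 3 domains did not overlap, and the order was center zone, adaxial, abaxial, with the center zone mean 2 times the adaxial mean. The mean over center zone and adaxial side was 3.68 times the abaxial mean.

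The AUX/IAA list held 22 gene IDs, of which 18 were tested. Its median log2 change of center zone and adaxial against abaxial was 0.84, beside 0.02 over all genes tested, and 1 gene, BIF4, was higher at an adjusted p under 0.01 in edgeR's quasi-likelihood test while none was lower. At an unadjusted p under 0.05, 4 were higher and 1 lower, and DESeq2 called 3 higher and 1 lower. AUX36, chosen on these values, was among the 18, among the 4 higher and among the 3 that DESeq2 called higher. Barren inflorescence4 (BIF4), an AUX/IAA gene known for its part in making axillary meristems in maize, stood just outside the present set. It was at 33 and 37.4 RPM in the center zone, 6.7 and 8.3 RPM adaxially and 0.9 and 1.1 RPM abaxially, and was left out only because its center zone mean was 4.69 times its adaxial mean. Between center zone and abaxial side alone, BIF4 and AUX3 passed the same threshold upward and none passed downward, where 6.22% of all genes tested were called higher and 4.42% lower, and AUX36 also passed but had been chosen on these values. Between the 2 leaf sides none passed in either direction, with 2 higher and 1 lower at an unadjusted p under 0.05 and 2 called higher by DESeq2. AUX36 was again among the 2 higher at the unadjusted p.

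The gene mha2 (GRMZM2G019404, chromosome 2, 4299718 to 4307332, minus strand) encodes a plasma membrane H+-ATPase, a proton pump that energizes transport into the cell and acidifies the cell wall. It was one of 2 genes of the set with the adaxial side above the center zone in every library. Its level was 9.9 and 11.2 RPM in the center zone and 19.3 and 17 RPM adaxially, against 4.8 and 4.4 RPM abaxially, so that the adaxial mean was 1.72 times the center zone mean. The related pump gene mha4 had 10.2 and 9.3 RPM in the center zone, 4 and 6.3 RPM adaxially and 8 and 12.2 RPM abaxially, with its lowest values on the adaxial side. The family member mha1 did not exceed 0.2 RPM in any library.

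The other gene with this order was GRMZM2G111537 (chromosome 5, 30991873 to 30993085, minus strand), with 10.7 and 14.8 RPM in the center zone and 18 and 33 RPM adaxially, against 1.9 and 2.3 RPM abaxially. Its adaxial mean was 2 times its center zone mean, the largest such ratio of the 24. In 12 genes, MADS36, AUX36 and GRMZM2G113235 among them, both center zone libraries lay above both adaxial libraries, and in the remaining 10 the libraries of the center zone and adaxial side overlapped. The ratio of the adaxial to the center zone mean ran from 0.366 to 2 with a median of 0.675.

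The rule bounds this ratio, so it is set beside the meristem markers only to give its scale. For the 8 meristem genes summed, the adaxial level was 0.0130 of the center zone level, and kn1, the class I KNOX gene that keeps meristem cells indeterminate, had 1110 and 971.1 RPM in the center zone against 9.9 and 2.4 RPM adaxially and 2.7 and 1.2 RPM abaxially. Of the 6 vasculature genes found by name, 2 were high enough to be tested, and BM1, a gene of lignin synthesis, ran in the same direction as the set with 55.4 and 30.7 RPM in the center zone, 6.9 and 2.3 RPM adaxially and 0.3 and 0.4 RPM abaxially. The 6 vasculature genes summed to 32.6 to 84.4 RPM in the center zone, 6.3 to 22.4 RPM on the adaxial side and 5.9 to 7.3 RPM on the abaxial side, and the part of vascular cells in the levels of the 24 genes was not tested. The 4 epidermal ocl genes summed to 291.8 to 314.4 RPM in the center zone and 1245 to 1634 RPM in the leaf libraries, where both abaxial sums (1634 and 1377 RPM) lay above both adaxial sums (1347 and 1245 RPM), and the part of epidermal cells in the levels of the 24 genes was not tested.

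**Figure D2:**
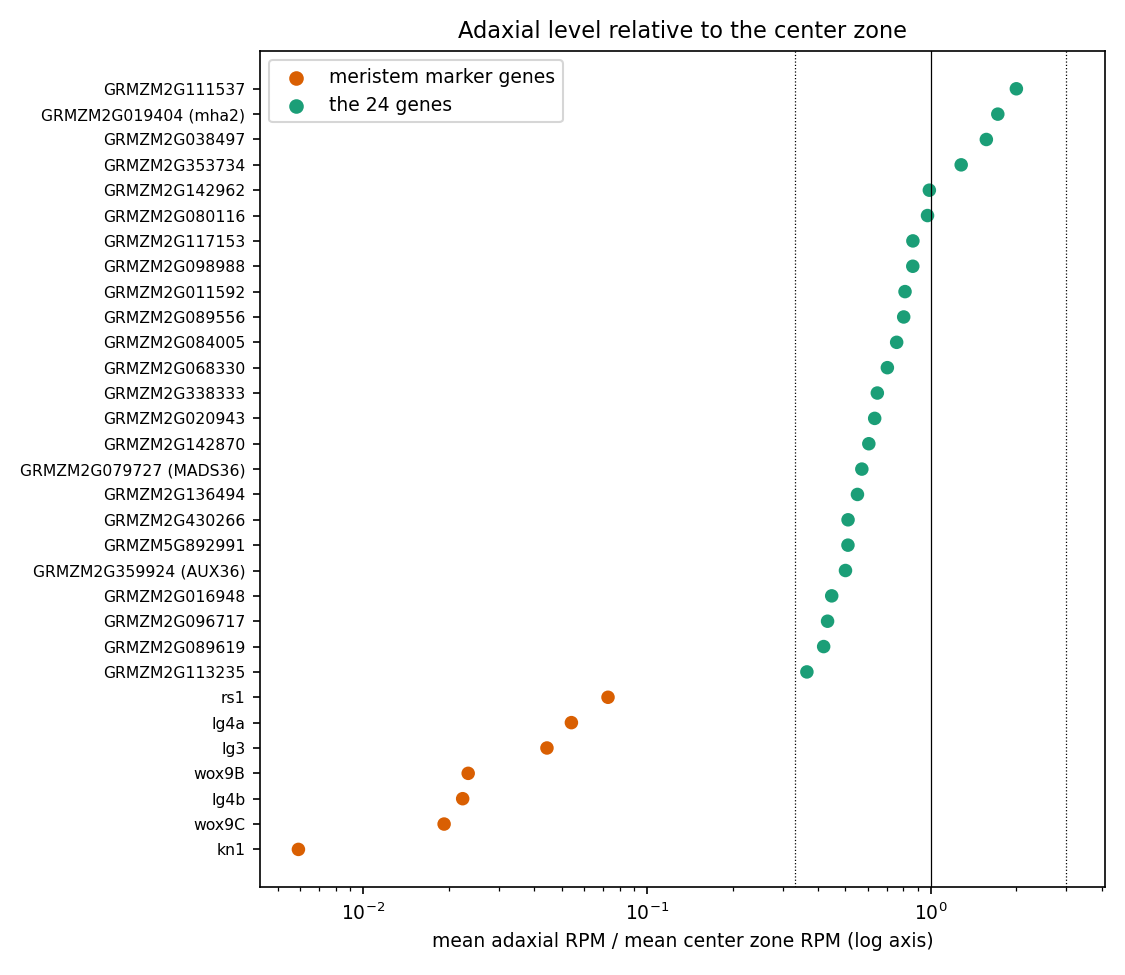
Ratio of the mean adaxial RPM to the mean center zone RPM on a log axis, for the 24 genes (green) and for the 7 meristem marker genes that were high enough to be tested (orange), 1 point per gene, with dotted lines at the 3-fold limits of the rule and a solid line at equal levels. The 24 genes lie between 0.366 and 2, a range the rule itself bounds, and kn1 lies at 0.00591.

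GRMZM2G136494 (chromosome 10, 149091789 to 149093805, minus strand) had the second widest gap but cannot be read on its own. It was at 118.2 and 189.8 RPM in the center zone and 105 and 64.7 RPM adaxially, against 1.1 and 3.7 RPM abaxially, a mean 49.8 times the abaxial mean. A stretch of 1006 bp of its 2017 bp lies under the gene GRMZM2G136283 on the plus strand (149089396 to 149092794). Whether reads were counted by strand is not given in the sources used here, and without strand, reads from the 2 genes cannot be told apart.

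The partner GRMZM2G136283 was at 137.8 and 219.7 RPM in the center zone and 127.4 and 77.1 RPM adaxially, against 120.4 and 114.1 RPM abaxially. In the center zone and adaxial libraries the count of GRMZM2G136494 was a nearly constant 0.824 to 0.864 of that of its partner, and both moved together from library to library. In the abaxial libraries the same ratio was 0.00914 and 0.0324. The partner exceeded GRMZM2G136494 by 12.4 to 29.9 RPM in the center zone and adaxial libraries and by 119.3 and 110.4 RPM in the abaxial libraries. The change in this ratio between domains was thus far larger than its spread within the 4 higher libraries, but which of the 2 strands carried the reads was not tested. A second gene of the set, mha2, also lies over another gene, GRMZM2G020043 on the plus strand, whose level was at most 0.2 RPM in every library.

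**Figure D3:**
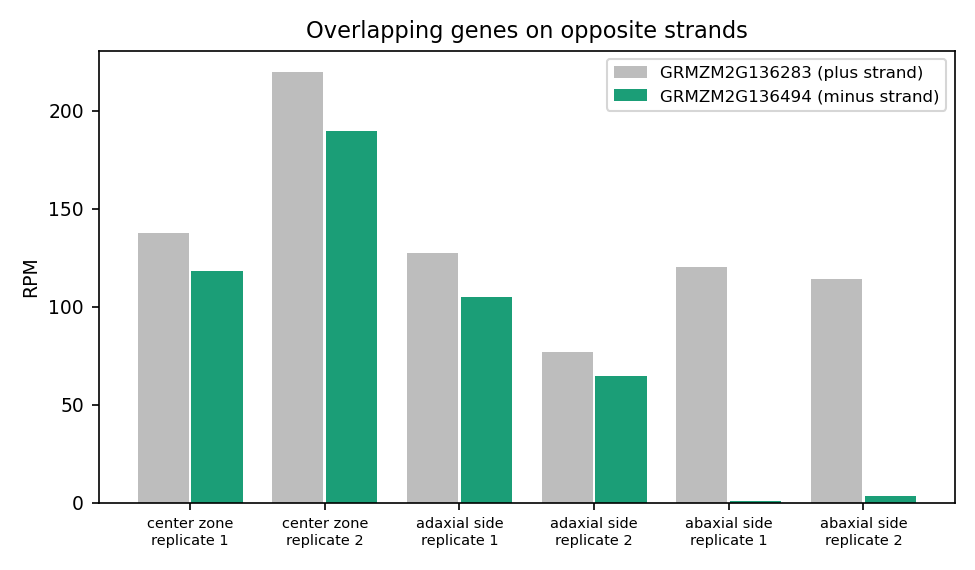
RPM of the overlapping genes GRMZM2G136283 (plus strand, gray) and GRMZM2G136494 (minus strand, green) in each of the 6 libraries, 1 bar per gene and library. The pair stands at similar heights in the 4 center zone and adaxial libraries, while in the abaxial libraries the gray bars are at 120.4 and 114.1 RPM and the green bars at 1.1 and 3.7 RPM.

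The other genes with wider gaps carried no name in the reference table. GRMZM5G892991 (chromosome 1, 75627918 to 75632263, plus strand) was at 40 and 19.2 RPM in the center zone and 12.7 and 17.5 RPM adaxially, against 2.5 and 2.7 RPM abaxially. GRMZM2G353734 (chromosome 4, 85294654 to 85297380, plus strand) was at 26.4 and 28.6 RPM, 26.6 and 43.7 RPM, and 8.1 and 6.8 RPM in the same order. For the first the adaxial libraries lay under both center zone libraries, and for the second they overlapped.

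GRMZM2G142962 (chromosome 1, 198192712 to 198194680, minus strand) was almost evenly divided between the higher domains, with 24.1 and 38.9 RPM in the center zone and 31.8 and 30.4 RPM on the adaxial side against 8.2 and 5.2 RPM on the abaxial side. GRMZM2G142870 (chromosome 8, 45260943 to 45275982, minus strand) spans 15040 bp, the longest gene model of the set, and was at 43.6 and 17.8 RPM, 19.7 and 17.4 RPM, and 4.6 and 6 RPM. Its high value in replicate 1 of the center zone was not met in replicate 2, which overlapped the adaxial libraries. The remaining 4 genes away from the limit of 2 times, GRMZM2G068330, GRMZM2G020943, GRMZM2G098988 and GRMZM2G016948, were at 8.2 to 22.3 RPM in the center zone, 5.2 to 21.7 RPM on the adaxial side and 1.8 to 4.2 RPM on the abaxial side.

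At the limit of 2 times the higher abaxial library, 3 genes were just inside. GRMZM2G011592 (chromosome 3, 227189904 to 227194656, minus strand) was at 264.7 and 206.6 RPM in the center zone and 191.2 and 190.8 RPM adaxially, against 93.8 and 75.9 RPM abaxially, a gap of 2.03-fold. GRMZM2G338333 (chromosome 1, 42514665 to 42517691, plus strand) was at 18.4 and 14.5 RPM, 9.8 and 11.5 RPM, and 4.1 and 4.8 RPM, a gap of 2.04-fold. GRMZM2G117153 (chromosome 9, 140587755 to 140592599, minus strand) was at 9.8 and 9.3 RPM, 7 and 9.5 RPM, and 2.9 and 3.5 RPM, a gap of exactly 2-fold. The abaxial side thus kept a sizeable level in all 3.

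Just outside that limit lay GRMZM2G119316, GRMZM2G074094 and GRMZM2G476230 with gaps of 1.97-fold, 1.90-fold and 1.82-fold. GRMZM2G119316 was at 15.9 and 10.5 RPM in the center zone and 6.3 and 10 RPM adaxially, against 2 and 3.2 RPM abaxially, values close to those of GRMZM2G117153. The limit therefore cuts through a continuous range of ratios. Just outside the level of 5 RPM lay GRMZM2G430522, HAK11 and SMR4, with lowest values of 4.9, 4.7 and 4.5 RPM, against 5, 5.2 and 5.3 RPM in GRMZM2G089619, GRMZM2G016948 and GRMZM2G080116 just inside.

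On the balance between the higher domains there was a wider step. The genes just inside were GRMZM2G113235, GRMZM2G089619 and GRMZM2G096717, with center zone to adaxial ratios of 2.74, 2.39 and 2.31, while the nearest gene outside, GRMZM2G065394, had a ratio of 4.58. In all, 6 genes met every other limit and failed this one, all of them with the center zone higher. The most uneven was CUC2/nam1 (GRMZM2G393433), a NAC transcription factor gene of the kind that marks organ boundaries, with 353.9 and 277.1 RPM in the center zone and 11.5 and 20.1 RPM adaxially, against 1.4 and 0.8 RPM abaxially.

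The HD-ZIP III genes rld2 and rld1, left out by name, ran in part along the same lines. Transcripts of rld2 (GRMZM2G042250) were at 323.7 and 461.5 RPM in the center zone and 276.5 and 177.4 RPM adaxially, against 102.6 and 88.6 RPM abaxially, so that its lowest higher library was 1.73 times the higher abaxial library. Transcripts of rld1 (GRMZM2G109987) differed far less, with 349.2 to 475.1 RPM in the 4 center zone and adaxial libraries and 384 and 374.9 RPM abaxially, and its center zone and abaxial values overlapped. IG1, as given above, was high on the adaxial side alone. The left-out genes without a name in the reference table had other profiles. GRMZM2G469551 was at 43 and 44.6 RPM in the center zone, 149.5 and 101.8 RPM adaxially and 57.3 and 47.8 RPM abaxially. GRMZM2G003509 was at 210.2 and 240.3 RPM, 46 and 37.6 RPM, and 26.9 and 21.4 RPM in the same order. GRMZM2G178102 was at 395.6 and 379.5 RPM, 125.9 and 84.9 RPM, and 54.8 and 49.8 RPM.

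Of the 6 adaxial identity genes found by name, none passed the threshold for center zone and adaxial against abaxial, in either direction, at an adjusted p under 0.01 in edgeR's quasi-likelihood test, and their median log2 change was 0.89. At an unadjusted p under 0.05, 4 were higher and 1 lower, and DESeq2 also called 4 higher and 1 lower. Against the abaxial side, IG1 and the related ial1 were higher on the adaxial side, where 0.05% of all genes tested were called higher, and rld2 and lbl1, a gene of ta-siRNA production, were higher in the center zone while rs2 was lower. The list named abaxial identity held 12 genes, most of them YABBY genes. Of the 12, kan3 and the YABBY genes yab14, YAB11 and yab10 were lower in center zone and adaxial libraries together than abaxially. None was higher, and the median log2 change was -3.01. For adaxial against abaxial alone none of the 12 passed and the median was -0.58, while DESeq2 called 5 lower and 1 higher. In that comparison DESeq2 called 66 of all 17993 genes lower and 129 higher. The YABBY gene yab9 went the other way, with 59.6 and 82 RPM adaxially against 20.2 and 19.5 RPM abaxially. YABBY genes are known as markers of the leaf as a whole in maize, and 6 on this list served above as leaf primordium markers. The median of -3.01 thus mixes center zone against leaf with adaxial against abaxial. The level of yab14 was 1.9 and 2.6 RPM in the center zone and 70.1 and 76.9 RPM adaxially, against 111.8 and 104.1 RPM abaxially. None of the 24 genes was on either polarity list. Lists were matched by name and only 3 of the 24 had one, so the others could not have been found there.

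The spread between replicates differed by domain. In the set, the higher of the 2 replicates exceeded the lower by a median of 1.45-fold in the center zone, 1.20-fold on the adaxial side and 1.21-fold on the abaxial side, beside 1.24-fold, 1.27-fold and 1.13-fold for all genes with a mean of at least 2 RPM in that domain. The center zone replicates differed more than 2-fold in 5 of the 24 genes, beside 10.8% of all 16982 genes expressed there. Replicate 1, the library with the higher leaf marker sum, was the higher in 16 of the 24. The share of all genes in that order was not counted, so nothing is read from this number. Whether the leaf signal in that library bears on these levels was not tested. Without this library 23 of the 24 genes still met the rule. Leaving out a library can break only the limit on balance, so nothing is drawn from this number. On the adaxial side 3 genes differed more than 2-fold, MADS36, GRMZM2G096717 and GRMZM2G098988, beside 6.04% of all 16746 genes expressed there. On the abaxial side GRMZM2G136494 and GRMZM2G096717 did, beside 2.72% of all 16565 genes expressed there. With 2 replicates a domain, a difference under 2-fold between center zone and adaxial side lay within what replicates of the same domain reached in these genes.

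A fit across all 17993 genes with a mean of at least 2 RPM in some domain gives the frame for these values, although the members were chosen on the same contrasts and nothing is read from their counts. At an adjusted p under 0.01 in edgeR's quasi-likelihood test, center zone and adaxial together were higher than abaxial for 2 of the 24 genes, GRMZM2G089556 and GRMZM2G113235, where 0.411% of all genes tested were called higher and 0.306% lower. The center zone was higher than the abaxial side for 19 of the 24, where 6.22% of all genes were called higher and 4.42% lower, and the adaxial side was higher for the same 2 genes as above, where 0.05% of all genes were called higher and 0.0222% lower. Between center zone and adaxial side, GRMZM2G113235 alone was called, higher in the center zone, where 6.38% of all genes were called higher and 5.61% lower.

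The numbers called depended strongly on the tool. DESeq2 called all 24 genes for center zone and adaxial against abaxial, where it called 4.41% of all genes higher, and 20 of the 24 for adaxial against abaxial, where it called 0.717%. In edgeR's quasi-likelihood test on all libraries, all 24 were higher in center zone and adaxial than abaxially at an unadjusted p under 0.05. At that p 12.4% of all genes tested were higher. The median log2 change of the 24 was 2.232 in that fit and 2.175 or 2.467 without abaxial replicate 1 or 2. Without replicate 1 of the center zone it was 2.187. Libraries that do not overlap were themselves not rare, since all 4 center zone and adaxial libraries lay above both abaxial libraries in 1229 of the genes tested, or 6.83%.

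The pattern was one of 3 that the same limits can define. Center zone and abaxial side high with the adaxial side low was met by 11 genes, and both leaf sides high with the center zone low by 642 genes. The limits on level and balance alone were met by 12037 genes for center zone and adaxial side, so that the 24 were set apart mainly by their abaxial level.

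The 24 genes were spread over 9 chromosomes, with 4 on chromosome 5 and none on chromosome 7. The closest pair, GRMZM2G011592 and GRMZM2G430266 on chromosome 3, lay 6.33 Mb apart. Of the 48 genes that flank the set, 24 were high enough to be tested and none belonged to the set. The median log2 change of these 24 neighbors for center zone and adaxial against abaxial was 0.05, in a range of -1.26 to 1.71, beside 0.02 over all genes tested. Of the tested neighbors that do not overlap a gene of the set, the nearest was CPN60I/HSP60-1 (GRMZM2G111477), a chaperonin gene 1115 bp from GRMZM2G111537, with 126.2 to 175.8 RPM in the 4 center zone and adaxial libraries, inside which range fell its abaxial 161.9 and 161.5 RPM. The abaxial values of GRMZM2G111537 lay below all 4 of its other values.

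How many genes met the rule depended on its limits more than on the scaling. With counts scaled by TMM the rule found 23 genes, 21 of them among the 24, and GRMZM2G011592, mha2 and GRMZM2G117153 fell out. A gap of 3 times kept 12 genes and a minimum of 10 RPM kept 9, while limits on group means in place of single libraries were met by 104 genes. Leaving out any single library gave 25 to 58 genes. In these settings 22 or more of the 24 were found again. The rule largely fixes this, since leaving out a library can break only the limit on balance. Lost on that limit were GRMZM2G038497 without replicate 1 of the center zone and GRMZM2G089619 without replicate 2. GRMZM2G096717 and GRMZM2G113235 were lost on it without replicate 1 of the adaxial side.

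**Figure D4:**
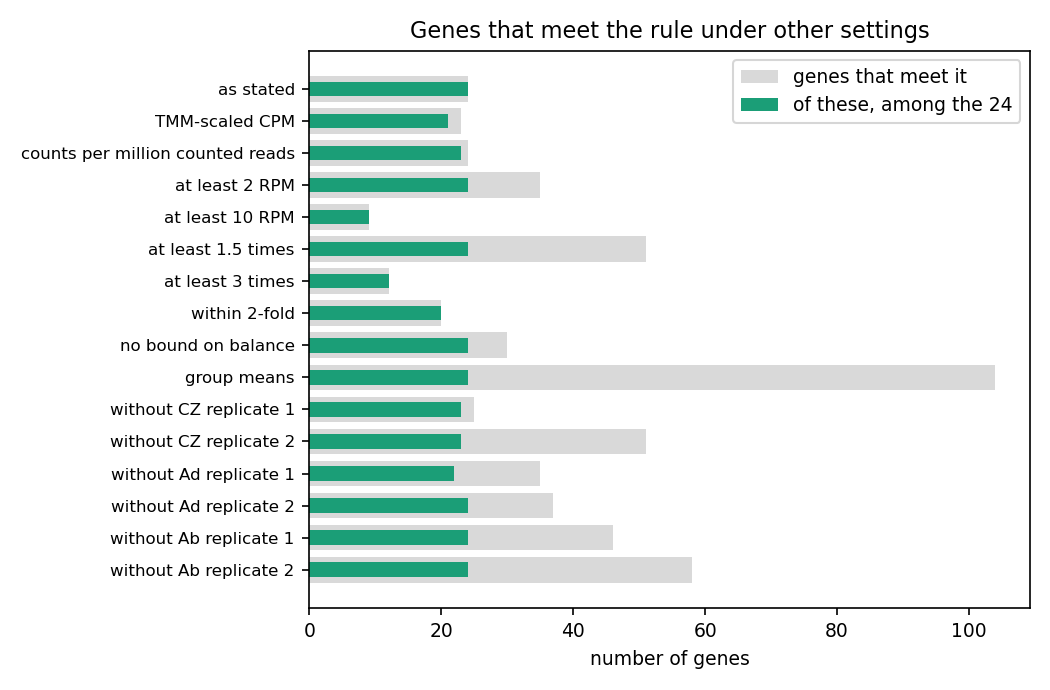
Number of genes that met the rule as stated and under other scalings, limits or with a library left out (gray bars), and how many of these were among the 24 genes (green bars). The green bars stay at 20 to 24 except for a minimum of 10 RPM (9) and a gap of 3 times (12), and the gray bars run up to 104 for group means. Looser limits and group means keep all 24 by construction, and leaving out a library can break only the limit on balance.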

How the data were processed

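RNA of laser-microdissected center zone, adaxial and abaxial cells was amplified linearly in 2 rounds and sequenced, with 2 libraries per domain. The authors trimmed bases with a Phred score under 15, aligned reads with GSNAP (version not given) to B73 RefGen_V3 and kept unique alignments with at most 2 mismatches every 36 bp. The deposited table holds read counts per gene of annotation FGSv5b, in which strand use is not given in the sources used here, and RPM that the authors scaled to uniquely aligned reads without length correction, because amplification captures the 3′ ends of transcripts. The counts summed to 95.9% to 96.3% of the aligned reads that these RPM imply. Coordinates are those of the deposited table.

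The rule was applied to the deposited RPM. Genes with a mean of at least 2 RPM in some domain (17993) were fitted with edgeR 4.0.16 in R 4.3.3 (TMM, robust dispersions, quasi-likelihood F test), in 1 fit of 3 groups with no replicate block, and p-values were adjusted by Benjamini-Hochberg over all of them, with a threshold of 0.01. The fit was tested on simulated data. Log2 ratios used a pseudocount of 0.5 RPM. Alternatives were DESeq2 1.42.0, limma-trend (limma 3.58.1), library sizes without TMM, a filter of 10 RPM or none, a threshold of 0.05, the replicate number as a block, other limits of the rule, other pseudocounts and leaving out each library. Total counts ran from 14718269 to 25898155, and 3 counts corresponded to 0.112 to 0.196 RPM. Amplified reads are not independent molecules, so intervals and floors reflect counting alone.

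Names came from the RefSeq gene table of Zm-B73-REFERENCE-NAM-5.0, used for names only, in which 18775 of 39656 gene IDs and 14 of the 24 genes were found, 3 of these with a name. Named genes were every member with a name, the 15 members with the widest gap to the abaxial side, the 5 with the highest mean, those at the limits of the rule, and list genes past the threshold. Gene lists were matched by symbol or the stem of a symbol with case ignored, so a list can hold genes of another family that share its stem. The members and lists were chosen with earlier results of these data known, and the MADS-box and H+-ATPase lists were added after the values were seen.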

Additional observations from a re-analysis of the deposited data

How the results depend on the processing

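The log2 ratio of center zone and adaxial to abaxial was recomputed for each of the 24 genes under 11 settings. Of these 264 values, 217 moved by less than the spread between replicates, 47 moved further and 0 changed sign. The genes were chosen with all center zone and adaxial libraries at least 2 times the higher abaxial library. With another pseudocount or a library left out, a change of sign was thus not possible. Of the 47, 23 came from a pseudocount of 5 RPM, under which the median log2 ratio was 1.32 in place of 2.14. Counts of calls moved more, and their cause was not tested. For center zone and adaxial against abaxial, edgeR called 129 of all genes tested, DESeq2 called 1433, edgeR with no filter on low genes 368 and edgeR at an adjusted p under 0.05 called 862. Leaving out 1 library gave 14 (without abaxial replicate 1) to 993 (without center zone replicate 1, with 304 higher and 689 lower). Of the 24 genes, 2 were called for this contrast, against 24 by DESeq2, 13 by limma-trend, 7 with library size alone, 15 with no filter, 7 of 22 tested with a filter of 10 RPM and 23 at an adjusted p under 0.05, and 0 to 17 with a library left out. For center zone against abaxial, 19 of the 24 were called, and 4 to 19 with a library left out, with 4 without either abaxial library and 11 without either adaxial library. For adaxial against abaxial, 2 were called, against 20 by DESeq2, 1 with library size alone, 4 with no filter, 4 at an adjusted p under 0.05, 7 in a fit of the leaf libraries alone and 0 to 6 with a library left out. For center zone against adaxial, 1 was called, against 2 by DESeq2, 4 at an adjusted p under 0.05, 0 by limma-trend, where 3 were higher and 2 lower at an unadjusted p under 0.05, and 0 to 1 with a library left out. The rule itself found 24 genes, 9 with a minimum of 10 RPM, 51 with a gap of 1.5 times, 12 with a gap of 3 times, 104 on group means and 25 to 58 with a library left out. Whether libraries with the same replicate number came from the same apices is not given. Their deviations from the domain means correlated at 0.0159 between center zone and adaxial side, -0.0595 between center zone and abaxial side and 0.187 between the leaf sides. With 2 replicates a domain these values cannot settle whether the libraries were paired. With the replicate number as a block, edgeR called 88 genes for center zone and adaxial against abaxial, and of the 24 genes it called 4 for this contrast, 9 for center zone against abaxial, 0 for adaxial against abaxial (24 at an unadjusted p under 0.05) and 0 for center zone against adaxial (4 higher and 2 lower at an unadjusted p under 0.05). The planned search for promoter motifs was not run, since no promoter sequence was used here. Depth limits the abaxial values most, where 2 of the 24 genes rested on fewer than 10 counts per library.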

Other observations

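Gene lists that held none of the 24 genes, of which only 3 had a name to match, give the surroundings of the set. Given below is how many of the tested genes of each list passed an adjusted p under 0.01 in edgeR's quasi-likelihood test for center zone and adaxial against abaxial, in which 74 of all 17993 genes were higher and 55 lower with a median log2 change of 0.02. Of 9 class I KNOX genes, 1 was higher (lg4b) and none lower, with a median of 3.48, while 7 were higher in the center zone than abaxially, where 6.22% of all genes tested were called higher, and none passed it between the leaf sides, where 2 were higher and 1 lower adaxially at an unadjusted p under 0.05 and DESeq2 called none. Of 18 genes matched by an ARF symbol, ARF5 was higher and ARF11 and ARF12 were lower, with a median of -0.13. This symbol is used for the transcription factors that AUX/IAA proteins bind. The match ignored case and took in both ARF1 and a separate arf1, and family membership was not checked gene by gene. Of 17 cytokinin genes, abph1, a response regulator gene known for its effect on phyllotaxy, was higher and none lower, with a median of 0.45.

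The lists tied to growth had few genes past this threshold. Of 19 genes matched by the symbols of growth-regulating factors and their cofactors, GIF1 was lower and none higher (median -0.30). At an unadjusted p under 0.05, 7 were lower and none higher, and DESeq2 called 6 lower and none higher. The match took in grf1 and grf2 as well as GRF1 and GRF2, and family membership was not checked gene by gene. Over all genes tested, 1951 were lower and 2237 higher at an unadjusted p under 0.05. Of 7 TCP genes, TCP7 was lower and none higher (median -0.38), while 3 were lower and 1 higher at an unadjusted p under 0.05 and DESeq2 called 1 lower and 1 higher. Of 9 genes matched to photosynthesis by the stem of their symbol, Pep1 (GRMZM5G899080) was lower and none higher (median 0.86). At an unadjusted p under 0.05, 1 was lower and none higher. Replicates differed widely in some of the 9, as in rbcs1 with 13.3 and 0.3 RPM in the center zone and 5.5 and 0.3 RPM adaxially. In others they were close, as in pep4 with 45.6 and 36.7 RPM in the center zone. The lists of 14 cell cycle genes (median -0.40), 14 histone genes (median -0.37), 31 ribosomal protein genes (median -0.05), 12 heat shock genes (median 0.20), 4 PIN auxin transporter genes (median -0.62), 2 gibberellin genes (median 0.29) and 2 LOB domain genes (median 1.36) had no gene past the threshold in either direction. At an unadjusted p under 0.05 these 7 lists had 0, 1, 3, 4, 1, 1 and 2 genes higher and 7, 4, 6, 1, 1, 0 and 0 genes lower, in the order named, and DESeq2 called 0, 0, 2, 1, 1, 0 and 2 higher and 2, 1, 2, 1, 1, 0 and 0 lower. The LOB domain genes, IG1 and ial1, passed it between the leaf sides, higher adaxially.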
